A study of Pimephales promelas and Coturnix japonica and Xenopus laevis with 724 samples.

Results

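The embryo controls of 2 fish, fathead minnow (Pimephales promelas) and rainbow trout (Oncorhynchus mykiss), were set against each other at the level of read counts per gene identifier. The members are the 37 libraries labelled as controls in the 4 minnow and the 4 trout embryo tables that carry the same chemical names, out of 724 libraries in the series, of which 193 are controls. Identifiers were kept where all 8 tables list them, which left 18185 of the 42403 identifiers of the series. The study exposed 6 vertebrate species to 8 chemicals, and each table holds the libraries of 1 species, life stage and chemical. The minnow controls number 19, with 5 in the benzo[a]pyrene table, 5 in the ethinylestradiol table, 5 in the fluoxetine table and 4 in the selenomethionine table. The trout controls number 18, with 7, 3, 3 and 5 in the tables of the same names. All 37 carry the labels embryo, dmso (dimethyl sulfoxide, the solvent in which test chemicals are commonly dissolved) and CTRL. By these labels none of them received a test chemical. The chemical name says only in which table a control stands, and the labels do not say whether a table is 1 exposure study. The labels give no embryo age, strain, rearing temperature, sex, or number of embryos per library, and do not say whether libraries came from separate embryos, pools or parents. The p-values over libraries therefore measure only the spread between these samples, part of which may be technical.

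Fathead minnow is a small cyprinid of warm North American waters that hatches within days, and rainbow trout is a cold-water salmonid that develops over weeks on a large yolk. Both are standard test fish in aquatic toxicology, where the young stages stand in for fish in chemical safety tests. Of the chemicals named by the tables, benzo[a]pyrene is a combustion product, ethinylestradiol is the oestrogen of contraceptive pills, fluoxetine is an antidepressant and selenomethionine is a selenium-containing amino acid. The salmonid lineage went through a whole-genome duplication that the cyprinid lineage of the minnow did not share, so that many genes present as 1 copy in the minnow are present as a pair in trout. The identifiers carry the prefix s2f and are common to all species of the series, and whether 1 identifier collects the reads of several gene copies is not stated in the sources used here. None of the files gives a gene name beside an identifier, and 0 of 42403 could be found in a list of annotated fathead minnow genes, so levels are given by identifier and no gene function or pathway is assigned.

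The deposited values are whole-number counts. The total over the 18185 shared identifiers was between 9495469 and 23654923 per minnow library (median 15685745) and between 9562157 and 26174266 per trout library (median 13990878). The shared identifiers took 99.1% to 99.4% of all counts in minnow libraries and 98.9% to 99.1% in trout libraries. No pair of libraries of 1 table agreed within counting noise. The closest pair gave a chi-square statistic of 2.81 per degree of freedom, and no 2 columns were taken as 1 library.

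The 2 species differed at most identifiers. They did so about as often upward as downward after scaling by TMM factors, which itself centres the fold changes near 0. Counts were summed over the controls of each table, which gave 4 minnow values against 4 trout values. The table was taken as the unit because its controls may share an exposure study, which the labels do not state. Of the 17298 identifiers that passed the filter on low counts, 5801 were higher and 5733 were lower in minnow (66.7% called in either direction, 33.5% higher and 33.1% lower, edgeR quasi-likelihood test at a Benjamini-Hochberg adjusted p under 0.05), and 5764 were not called. The remaining 887 of the 18185 identifiers were not tested. The absolute log2 fold change had a median of 0.85 over all tested identifiers, with a 10th percentile of 0.15 and a 90th percentile of 2.88. Against a threshold of a 2-fold difference, 2679 identifiers were higher (15.5%) and 2447 were lower (14.1%) in minnow, together 29.6% of those tested. Among these, 572 had a fitted fold change of more than 16 in favour of minnow and 418 of more than 16 in favour of trout. Of all tested identifiers, 453 had under 10 counts in every trout table and 237 under 10 in every minnow table. These passed the filter wholly or in part through the other species, and how many are among the 572 and 418 was not counted. With a minimum count of 50, 2373 were over 2-fold higher and 2215 over 2-fold lower in minnow. Library by library, 2863 identifiers had every one of the 19 minnow libraries above every one of the 18 trout libraries (16.6% of those tested), and 3097 had every minnow library below every trout library (17.9%), together 34.5%. The median log2 fold change of all identifiers was 0.00 after scaling by TMM factors. It was 0.13 with library totals alone, where 6261 identifiers were higher and 4878 were lower, and all directions below are relative to the TMM scaling unless stated. Species cannot be told apart here from whatever else differs between the minnow and the trout studies, and the match of each species' reads to the identifiers cannot be told apart from the level of RNA. In bulk embryo RNA, fewer cells of a type and less RNA per cell also cannot be told apart.

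**Figure D1:**
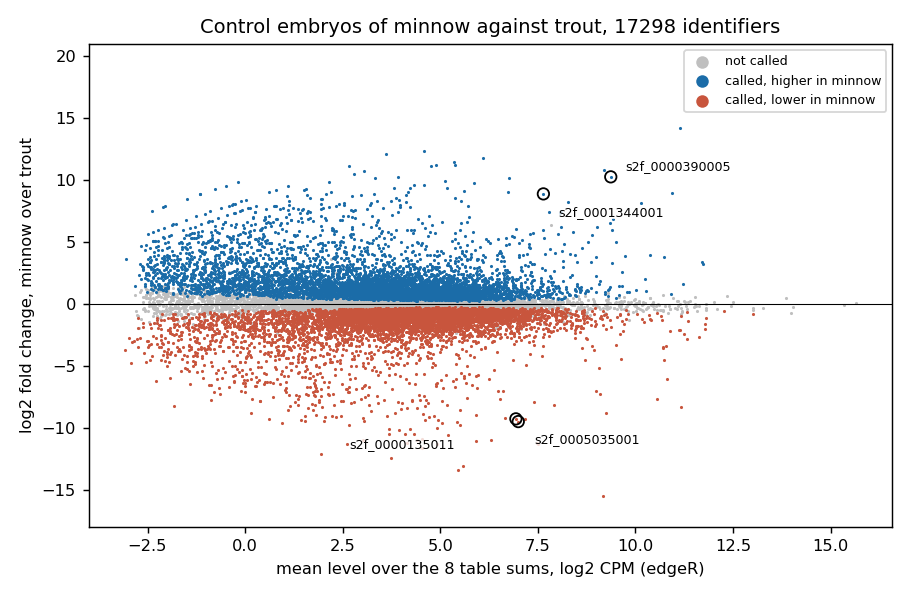
Each point is 1 of 17298 identifiers, with its mean level over the 8 table sums in log2 CPM (counts scaled to a common library total) on the horizontal axis and the log2 fold change of minnow over trout on the vertical axis. The 5801 identifiers called higher and the 5733 called lower in minnow spread on both sides of 0 at every level, and the 4 circled identifiers are those given library by library.

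Single identifiers are shown library by library. Since no names were available, 2 identifiers per direction were taken: the largest log2 fold changes among those called in the table sums, called with the same sign in each of the 4 pairs of tables, without overlap between the libraries of the 2 species, and with at least 10 counts in every table. That rule was met by 2343 identifiers higher and 2765 lower in minnow. A larger fitted difference than the first of these was found for 13 called identifiers in the upward direction and 29 in the downward direction, which did not meet the rule. The lack of overlap between the libraries of the 4 is set by the rule. Levels are in CPM, counts scaled to a common library total with TMM factors. Identifiers differ in the length of the RNA behind them, so levels are compared between libraries and not between identifiers.

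The identifier s2f_0000390005 was abundant in minnow embryos and nearly without reads in trout embryos. Its level ran from a lowest of 884 over a median of 1195 to a highest of 2511 CPM in the 19 minnow libraries, against a lowest of 0.284, a median of 0.726 and a highest of 4.29 CPM in the 18 trout libraries. The lowest minnow library lay above 800 CPM and no trout library reached 5 CPM. The log2 fold change was 10.27 ± 0.83 (SE, 4 table sums against 4, edgeR adjusted p = 5.27e-06). Trout libraries were not empty for it, with 4 to 37 counts each, against 13197 to 33242 counts in minnow libraries. In both species the controls of the ethinylestradiol table were the highest. They averaged 2169 ± 379 CPM in minnow (SD, n = 5) and 3.0 ± 1.5 CPM in trout (SD, n = 3), while the means of the other minnow tables were 981 to 1255 CPM and those of the other trout tables were 0.402 to 0.906 CPM. The species difference of s2f_0000390005 varied over the 4 pairs of tables (edgeR adjusted p = 9.40e-06), from a log2 fold change of 9.51 ± 0.24 (SE) in the ethinylestradiol pair to 11.58 ± 0.27 (SE) in the fluoxetine pair. Outside the fish, the same identifier averaged 1068 CPM in leopard frog embryo controls and 1117 CPM in clawed frog embryo controls, and 223 to 633 CPM in the liver controls of cormorants and quail (each from the mean of log2(CPM + 1)). Among these sources, s2f_0000390005 lay below 5 CPM in trout embryos alone.

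Among the same sources, s2f_0001344001 was high in the minnow libraries alone. It had a lowest of 262, a median of 338 and a highest of 1317 CPM in minnow libraries, against a lowest of 0.350, a median of 0.623 and a highest of 1.52 CPM in trout libraries. The log2 fold change was 8.89 ± 0.41 (SE, 4 table sums against 4, edgeR adjusted p = 2.21e-07). The controls of the minnow ethinylestradiol table averaged 714 ± 344 CPM (SD, n = 5), and the means of the other minnow tables were 286 to 365 CPM, while the 4 trout tables averaged 0.617 to 1.17 CPM. Whether the difference of s2f_0001344001 varied over the 4 pairs did not pass the test (edgeR adjusted p = 0.206), with log2 fold changes from 8.09 ± 0.35 (SE) in the fluoxetine pair to 9.24 ± 0.37 (SE) in the ethinylestradiol pair. In the frog embryo controls it averaged 0.761 CPM in leopard frogs and 0.120 CPM in clawed frogs, and the highest of the bird livers was the cormorant with 8.22 CPM.

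The identifier s2f_0005035001 was the reverse case. It had a lowest of 0.0733, a median of 0.324 and a highest of 0.865 CPM in minnow libraries, which are 1 to 14 counts per library, against a lowest of 212, a median of 247 and a highest of 298 CPM in trout libraries. The log2 fold change was -9.50 ± 0.39 (SE, 4 table sums against 4, edgeR adjusted p = 1.18e-07). The means of the 4 trout tables lay between 227 CPM (benzo[a]pyrene) and 294 CPM (ethinylestradiol), and differences among them passed the test (edgeR adjusted p = 0.0220). Those of the minnow tables lay between 0.178 CPM (benzo[a]pyrene, 18 counts in all) and 0.653 CPM (ethinylestradiol, 43 counts in all). Differences among the minnow tables passed the test too (edgeR adjusted p = 0.000103), on these few counts. The species difference of s2f_0005035001 varied over the pairs (edgeR adjusted p = 0.00674), from -10.17 ± 0.18 (SE) in the benzo[a]pyrene pair to -8.79 ± 0.17 (SE) in the ethinylestradiol pair. It was listed at 0 or not listed in the controls of the clawed frog and the birds, and averaged 68.3 CPM in leopard frog embryo controls.

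The identifier s2f_0000135011 had the smallest error of the 4. Its level was at a lowest of 0.169, a median of 0.363 and a highest of 0.851 CPM in minnow libraries, against a lowest of 192, a median of 250.1 and a highest of 326 CPM in trout libraries. The log2 fold change was -9.28 ± 0.24 (SE, 4 table sums against 4, edgeR adjusted p = 1.76e-08). A variation over the 4 pairs did not pass the test (edgeR adjusted p = 0.166), and the pair values lay between -9.59 ± 0.21 (SE, fluoxetine) and -8.68 ± 0.20 (SE, ethinylestradiol). It had no counts or was not listed in the frog and bird controls.

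**Figure D2:**
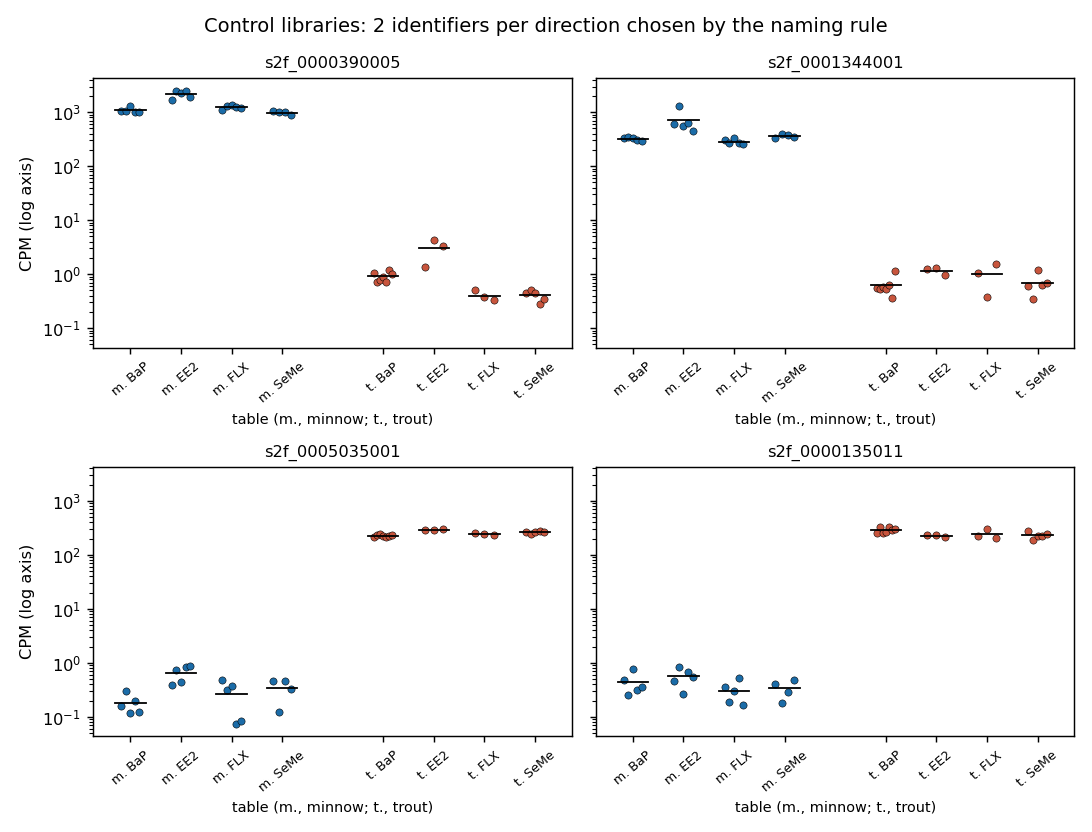
Points are CPM of single control libraries on a log axis, grouped by table with the minnow tables on the left and the trout tables on the right, and bars are table means. The minnow libraries of s2f_0000390005 sit between 884 and 2511 CPM above trout libraries of at most 4.29 CPM, and those of s2f_0005035001 sit at or below 0.865 CPM under trout libraries of at least 212 CPM.

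At the other end of the scale, the identifiers that take the most reads were largely shared by both species. The 100 most abundant identifiers of minnow and the 100 most abundant of trout had 69 in common, and the 10 most abundant had 8 in common. The same identifier ranked first in both species. It took a lowest of 4.57%, a median of 5.27% and a highest of 6.80% of the counts in minnow libraries, against 1.30%, 3.90% and 8.28% in trout libraries, so the trout range enclosed the minnow range. Its log2 fold change was 0.05 ± 0.46 (SE, 4 table sums against 4, edgeR adjusted p = 0.930). The identifier ranked second was also the same and took a median of 4.05% in minnow and 3.19% in trout libraries, with a log2 fold change of -0.09 ± 0.37 (SE, edgeR adjusted p = 0.846). Of the 131 identifiers in either list of 100, 22 were higher and 33 were lower in minnow, which is 55 called of 131 beside the 66.7% of all tested identifiers. Past the 2-fold threshold, 18 of the 131 were higher and 16 lower, beside 15.5% and 14.1% of all tested identifiers. An identifier that was not called is not shown to have equal levels.

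The species difference was then measured separately in each of the 4 pairs of tables, which share no library, in 1 fit of all 37 libraries with 16977 tested identifiers. In the benzo[a]pyrene pair 7163 identifiers were higher and 6794 lower in minnow (82.2% called). The ethinylestradiol pair gave 6491 higher and 6703 lower (77.7%), the fluoxetine pair 6541 higher and 6440 lower (76.5%), and the selenomethionine pair 6870 higher and 6818 lower (80.6%). In this fit libraries, and not tables, are the unit of replication. The 4 pairs called the same identifiers in the same direction in 9585 cases (56.5% of those tested), 4699 higher and 4886 lower in minnow in all 4. Those 9585 made up 68.7% of the calls of the benzo[a]pyrene pair, 72.6% of the ethinylestradiol pair, 73.8% of the fluoxetine pair and 70.02% of the selenomethionine pair. A further 349 identifiers were called in all 4 pairs with mixed signs, and 706 were called in none.

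The species difference was not the same in each pair of tables. An F test of the 3 contrasts between the 4 pairs called 7973 of the 16977 identifiers (47.0%, edgeR quasi-likelihood test, adjusted p below 0.05). Of these, 3707 were nevertheless called with 1 sign in all 4 pairs, and 1202 were called higher in minnow in at least 1 pair and lower in at least 1 other. The highest and the lowest of the 4 pair values were a median of 0.95 apart on the log2 scale among the varying identifiers, against 0.70 among all tested identifiers. For the 3708 varying identifiers whose pair values spanned more than 1 on the log2 scale, the pair farthest from the median of the 4 was the ethinylestradiol pair in 2688 cases, the selenomethionine pair in 439, the fluoxetine pair in 351 and the benzo[a]pyrene pair in 230. The ethinylestradiol pair has 3 trout libraries, as does the fluoxetine pair, and its minnow libraries had the largest spread within a table. The part of that spread in these counts was not tested.

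The controls of 1 species also differed between tables. Of 16977 identifiers, 10934 differed between the 4 minnow tables (64.4%, edgeR quasi-likelihood F test, adjusted p below 0.05), and 9390 differed between the 4 trout tables (55.3%). These differences were smaller than those between the species. The median absolute log2 difference between 2 tables of 1 species was 0.10 to 0.48, and between a minnow and a trout table it was 0.83 to 1.03. Across identifiers, which are not independent replicates, log2 levels of 2 tables correlated with Pearson's r of 0.941 to 0.994 within a species and 0.709 to 0.748 between species. Of the variance of an identifier's log2 CPM over the 37 libraries, a median of 60.4% lay between species, 19.3% between the tables of a species and 12.9% between the libraries of a table. The share between species was above 50% for 9835 of 16977 identifiers.

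**Figure D3:**
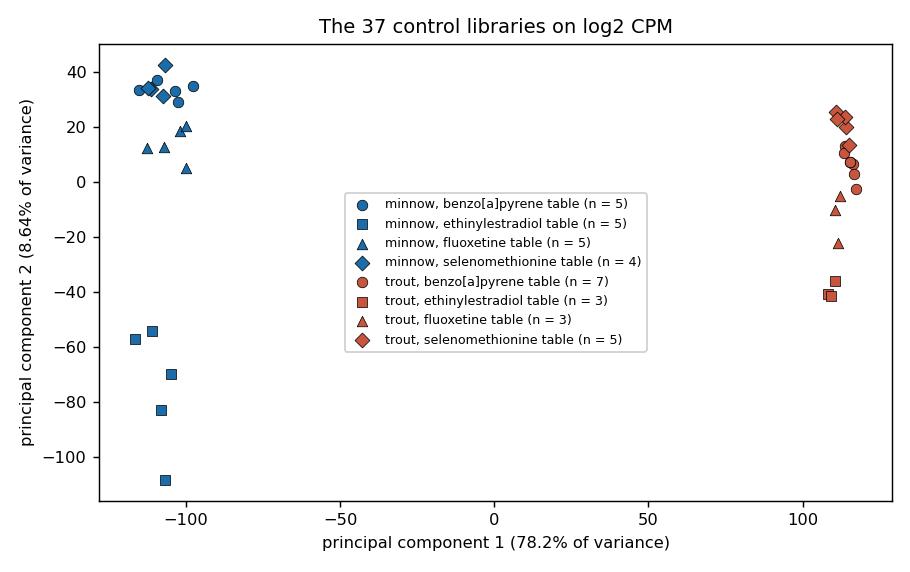
Each point is 1 of the 37 control libraries on the first 2 principal components of log2 CPM, which hold 78.2% and 8.64% of the variance. The first component separates minnow (left) from trout (right) without overlap, and on the second the ethinylestradiol controls of both species have the lowest values of their species.

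On the second principal component the 5 minnow libraries of that table lay between -108 and -54.1, and the other 14 minnow libraries between 4.99 and 42.6. The 3 trout libraries of the ethinylestradiol table lay between -41.5 and -36.2, and the other 15 trout libraries between -22.4 and 25.4. Against the mean of the other 3 minnow tables, 11195 identifiers differed in the minnow ethinylestradiol controls (65.9%, 6142 higher and 5053 lower). Against the mean of the other 3 trout tables, 6943 differed in the trout ethinylestradiol controls (40.9%, 3704 higher and 3239 lower). In trout the same comparison gave more for the selenomethionine controls, 7310 identifiers (43.1%), and the ethinylestradiol controls differed from those of fluoxetine at 1142 (6.73%). By size the order was the reverse, with a median absolute log2 difference of 0.32 for ethinylestradiol (3 libraries) and 0.27 for selenomethionine (5 libraries). The trout ethinylestradiol and fluoxetine controls lay a median of 0.22 apart. Those of benzo[a]pyrene and selenomethionine lay 0.19 apart, with 3161 calls from more libraries. The minnow ethinylestradiol libraries also varied most among themselves, with a biological coefficient of variation of 0.248, while the other minnow tables had 0.0963 to 0.164 and those of trout 0.0895 to 0.158. Replicate A stood farthest out in that table. Its pairs had a chi-square of 51.8 to 78.3 per degree of freedom, and pairs without it 11.7 to 34.6. How far the coefficient rests on replicate A was not tested. These controls received no oestrogen according to their labels, and whatever else differs for them cannot be told apart from the table.

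**Figure D4:**
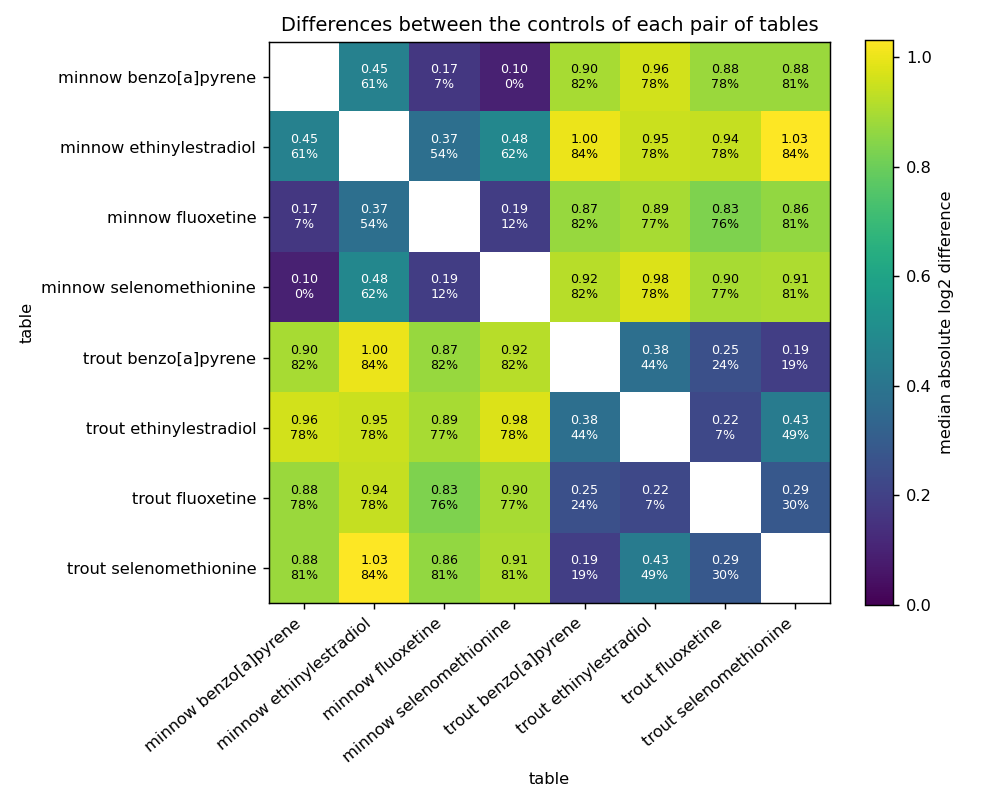
Each cell gives the median absolute log2 difference between the controls of 2 tables (upper number and colour) and the percentage of 16977 identifiers called between them (lower number), with the minnow tables before the trout tables on both axes. Cells within a species lie between 0.10 and 0.48, cells between species between 0.83 and 1.03, and the minnow benzo[a]pyrene and selenomethionine tables have no identifier called between them (0%).

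Single pairs of tables within a species ranged from no call to most identifiers. The minnow benzo[a]pyrene and selenomethionine controls differed at 0 of 16977 identifiers by edgeR's quasi-likelihood test, with 816 at an unadjusted p below 0.05 and 1 by DESeq2, and at 0 in a fit of those 9 libraries alone. Leaving out 1 library gave up to 4 calls, the most without replicate D of the selenomethionine table. The closest pair of columns across the 2 tables had a chi-square of 7.43 per degree of freedom, beside 6.31 for the closest pair within the selenomethionine table and 9.42 within the benzo[a]pyrene table. The minnow ethinylestradiol controls differed from the selenomethionine controls at 10441 identifiers (61.5%), from the benzo[a]pyrene controls at 10385 (61.2%) and from the fluoxetine controls at 9088 (53.5%). The minnow fluoxetine controls differed from those of selenomethionine at 1980 (11.7%) and from those of benzo[a]pyrene at 1194 (7.03%). These last 2 counts shifted in both directions when 1 library was left out, over 961 to 2533 and 557 to 1681. The first was 961 without replicate E of the fluoxetine table and 1049, 1052 and 1216 without replicates B, C and D of the selenomethionine table, and the second was 557 and 767 without replicates E and B of the fluoxetine table and 716 without replicate B of the benzo[a]pyrene table. In trout, the ethinylestradiol controls differed from the selenomethionine controls at 8349 identifiers (49.2%), from the benzo[a]pyrene controls at 7419 (43.7%) and from the fluoxetine controls at 1142 (6.73%). The trout selenomethionine controls differed from those of fluoxetine at 5077 (29.9%) and from those of benzo[a]pyrene at 3161 (18.6%), and fluoxetine and benzo[a]pyrene controls differed at 4063 (23.9%). Such counts depend also on the number of libraries per table, so they do not rank the pairs by size of difference. Without replicate A of the trout fluoxetine table, its difference from selenomethionine fell to 3144 and from benzo[a]pyrene to 2275. The count between trout ethinylestradiol and fluoxetine controls was the least firm. It was 492 and 463 without replicates A and B of the ethinylestradiol table, 433 and 545 without replicates B and C of the fluoxetine table, 1808 without replicate A of the fluoxetine table, and 1830 without replicate A of the minnow ethinylestradiol table, which shares the estimate of the spread.

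The deviations of a table from the other tables of its species were compared between the species, which share no library. In the ethinylestradiol controls 11195 minnow identifiers (65.9% of all tested) and 6943 trout identifiers (40.9%) were called, and 5126 were called in both species. With shares this large, many identifiers fall in both lists by number alone, and no test of the overlap was made. Of the 5126, 4259 moved in the same direction in both species, which is 38.0% of the minnow list and 61.3% of the trout list. The other 867 moved in opposite directions (7.74% and 12.5%). For selenomethionine, 5693 minnow identifiers (33.5%) and 7310 trout identifiers (43.1%) were called, of which 2593 had the same direction in both species and 364 the opposite one. For benzo[a]pyrene, 4910 minnow identifiers (28.9%) and 5560 trout identifiers (32.8%) were called, of which 1432 had the same and 549 the opposite direction. For fluoxetine, 2324 minnow identifiers (13.7%) and 766 trout identifiers (4.51%) were called, and same-direction calls (40) were fewer than opposite ones (105). The fluoxetine counts were the least stable: trout calls were 221 without replicate C and 301 without replicate A of the trout fluoxetine table and 1306 without replicate A of the minnow ethinylestradiol table, and minnow calls were 1431 without replicate D of the minnow fluoxetine table. The 40 same-direction calls became 11 and 13 without trout fluoxetine replicates A and C, 109 and 64 without minnow ethinylestradiol replicates A and E, and 72 by DESeq2. Within a species the 4 comparisons share libraries, so a table that stands far out moves the other 3 the opposite way, and the 4 overlaps are not separate observations.

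The balance of higher and lower calls was described for lists of identifiers, chosen by where else an identifier was listed or expressed. The lists were drawn from the shared identifiers, which the fish tables set. Within these, membership used no fish library, except for the 4 groups by level, while the filter on low counts used the fish counts. Lists are described by counts and medians beside the same over all tested identifiers. Of those, 33.5% were higher and 33.1% lower in minnow, with a median log2 fold change of 0.00. Identifiers listed in the tables of all 6 species gave 4427 higher (33.1%) and 4251 lower (31.7%) among 13390 tested of 13998, and a median absolute log2 fold change of 0.77 against 0.85. Identifiers listed in the tables of the 2 fish and of no frog or bird were lower in minnow more often than higher, with 113 higher (23.7%) and 247 lower (51.9%) among 476 tested of 587. Their median log2 fold change was -0.92, and their median absolute value of 2.10 was more than that of all identifiers. Identifiers listed in fish and a frog but no bird were similar, with 88 higher (22.9%) and 215 lower (55.8%) among 385 tested of 455 and a median of -1.32. Identifiers listed in fish and a bird but no frog gave 369 higher (39.3%) and 316 lower (33.7%) among 939 tested of 970, with a median of 0.07. The fish-only and the fish-and-frog lists are lists of low levels, with median levels of 0.415 and 0.560 CPM in minnow and 0.823 and 1.59 CPM in trout. Of the 476, 72 had under 10 counts in every minnow table and 49 under 10 in every trout table. Of the 385, 47 had under 10 counts in every minnow table and 29 under 10 in every trout table. Such identifiers passed the filter wholly or in part through the other of the 2 fish.

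In the frog-embryo list more identifiers were higher than lower in minnow. It holds the 3180 identifiers whose mean log2 level in the controls of leopard frog and clawed frog embryos was at least 2 above that in the liver controls of cormorants and quail. A table that does not list an identifier was entered with a level of 0 for it. Members of this list and of the opposite list may therefore be unlisted in some tables, and not measured as low there. Of the 3087 tested, 1309 were higher (42.4%) and 734 lower (23.8%) in minnow, with a median log2 fold change of 0.30. The median was 0.22 in the ethinylestradiol pair, 0.31 in the fluoxetine pair, 0.41 in the benzo[a]pyrene pair and 0.43 in the selenomethionine pair. With library totals alone it was 0.45, against 0.13 for all identifiers on that scale. Of the 3087, 76 had under 10 counts in every trout table and 20 under 10 in every minnow table. These passed the filter wholly or in part through the other species. With a minimum count of 50, 1249 were higher and 696 lower of 2949 tested, with a median of 0.29. The opposite list, of 850 identifiers at least 2 higher in the bird livers, gave 283 higher (34.9%) and 271 lower (33.4%) among 811 tested, with a median of 0.04. Its median was below 0 in the benzo[a]pyrene pair (-0.07) and the selenomethionine pair (-0.02), and above 0 in the fluoxetine pair (0.13) and the ethinylestradiol pair (0.22).

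The tested identifiers were also split into 4 groups of near-equal size by their mean level. The group with the lowest mean held 1840 higher (42.5%) and 1173 lower (27.1%) in minnow among 4325, with a median log2 fold change of 0.44. The group with the highest mean held 1198 higher (27.7%) and 1561 lower (36.1%), with a median of -0.13. With library totals alone the highest group no longer leaned to trout, with 1317 higher, 1280 lower and a median of 0.00, which is below the 0.13 of all identifiers on that scale. The lowest group included 200 identifiers with under 10 counts in every minnow table and 418 with under 10 in every trout table.

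**Figure D5:**
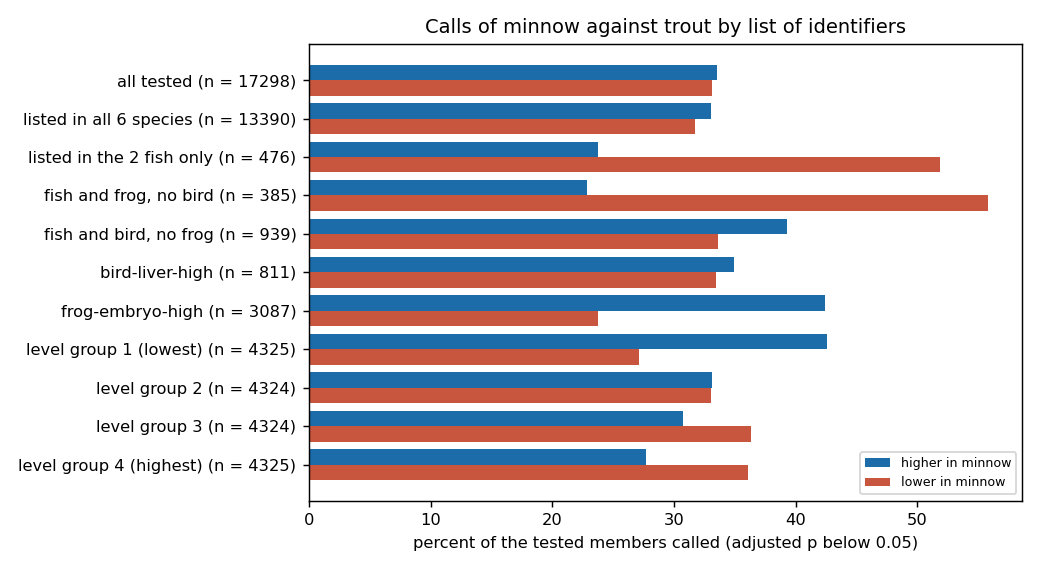
Bars give the percentage of each list's tested members called higher (upper bar) or lower (lower bar) in minnow than in trout. All tested identifiers have 33.5% and 33.1%, the frog-embryo-high list 42.4% and 23.8%, and the list of the 2 fish only 23.7% and 51.9%.

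The frogs and birds were used once more, to ask which fish their level lay nearer to among the identifiers past the 2-fold threshold. Of those higher in minnow, 1017 of 2268 listed in leopard frog embryos (44.8%) and 1199 of 2283 listed in clawed frog embryos (52.5%) had a frog level nearer to minnow than to trout. Of those lower in minnow, 1239 of 1939 (63.9%) and 1248 of 1937 (64.4%) had a frog level nearer to minnow. The liver level of early-life quail was nearer to minnow for 27.7% of 2530 listed identifiers over 2-fold higher in minnow and 64.0% of 2037 over 2-fold lower, and that of cormorants for 36.5% of 2037 and 50.6% of 1673. Levels were means of log2(CPM + 1), which were not scaled between these sources and the fish, and no test was made of these shares. The same share over all tested identifiers was not computed, so no likeness of frogs or birds to 1 of the fish is read from them.

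Within the tables compared here, some identifiers were listed for 1 of the fish only. All 4 minnow tables and none of the 4 trout tables listed 2372 identifiers. All 4 trout tables and none of the 4 minnow tables listed 2319. They are called minnow-only and trout-only below, although the other minnow tables of the series were not searched for them. The minnow-only identifiers took a lowest of 0.281%, a median of 0.332% and a highest of 0.360% of the counts of minnow libraries, and the trout-only ones 0.518%, 0.633% and 0.688% of the counts of trout libraries. At a mean of at least 10 CPM there were 73 minnow-only and 137 trout-only identifiers. Of the minnow-only identifiers 1371 (57.8%) were also listed in a frog or bird table, and of the trout-only identifiers 350 (15.1%). Of the 18185 shared identifiers, all but 587 were listed in a frog or bird table, so both shares lie below that of the shared identifiers. Why a table lists an identifier is not given in the sources used here, so a missing identifier is not a measured 0. Among the 18185 shared identifiers, 12 had no count in any of the 19 minnow libraries, with trout means of at most 7.66 CPM, and 22 had no count in any of the 18 trout libraries, with minnow means of at most 1.65 CPM.

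Whole libraries were compared by 4 measures, for which the smallest p allowed by 4 tables against 4 does not pass after adjustment over the 4 when 1 measure alone reaches it. After every library was thinned to 9495469 counts, minnow table means of the number of identifiers with at least 1 count were 17230 to 17381, and trout table means were 16935 to 17090. The minnow mean of 17299.5 ± 80.7 exceeded the trout mean of 17024 ± 67.2 (SD, n = 4 tables each), and all 4 minnow tables lay above all 4 trout tables. This gave the smallest p the design allows (exact two-sided permutation test, p = 0.0286), and it did not pass after adjustment over the 4 measures (adjusted p = 0.114). The 10 most abundant identifiers took 18.2% ± 1.8 of the counts in minnow and 17.7% ± 5.4 in trout (SD, n = 4 tables each, exact two-sided permutation test, p = 0.886, adjusted p = 0.886). Trout tables differed widely in that share, from 12.3% in the benzo[a]pyrene controls to 24.1% in the ethinylestradiol controls, while minnow tables ran from 16.4% to 20.4%. The 100 most abundant took 38.7% ± 3.5 in minnow and 40.2% ± 6.3 in trout (SD, n = 4 tables each, exact permutation p = 0.800, adjusted p = 0.886). The biological coefficient of variation was 0.163 ± 0.063 in minnow and 0.115 ± 0.030 in trout tables (SD, n = 4 tables each, exact permutation p = 0.257, adjusted p = 0.514).

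The trout benzo[a]pyrene controls carry 2 kinds of title, 4 starting with S and 3 with C, while the other labels treat all 7 alike. Between them 0 of 15320 identifiers were called by edgeR's quasi-likelihood test, 1263 had an unadjusted p below 0.05, and DESeq2 called 0. Without replicate SC the count was 13. The number of libraries limits what this comparison can show, and a count of 0 does not show that the 2 kinds are alike. In the other tables the kind of title goes with the table. Titles start with C in the minnow and trout fluoxetine controls and with PC in the trout selenomethionine controls. They start with S in the remaining minnow tables and in the trout ethinylestradiol table. Where tables or pairs set different kinds of title against each other, title and table cannot be told apart, and the part of the title was not tested.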

How the data were processed

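RNA sequencing of embryos was read from count tables. The authors deposited counts as whole numbers, with 1 table for each species and chemical at a life stage. Per the labels' protocols, minnow and trout RNA was extracted with a column kit and sequenced with paired ends on 1 of 2 Illumina instruments, which one for which library not being stated. How reads were aligned and counted, against which build and reference, is not given in the sources used here, nor how reads of duplicated genes were assigned. Counts are treated as raw because they are whole and library totals differ.

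The members, lists and tests were chosen with earlier results of these data known. The comparisons of each table with the others of its species, the nearness to frog and bird levels and the overlap between species were added after the counts had been seen. Counts of the 18185 identifiers in all 8 tables were used, each library's total being that over these identifiers. Control counts were summed per table and tested 4 against 4 by the quasi-likelihood test of edgeR (version 4.0.16, in R 4.3.3 with limma 3.58.1) after filterByExpr (minimum count 10, minimum total 15) and TMM scaling. Calls past 2-fold used glmTreat with a log2 fold change of 1. Pairs of tables, tables of a species and variation over pairs were tested in 1 fit of the 37 libraries with 8 table means. Benjamini-Hochberg adjusted p below 0.05 over all tested identifiers is a call, and standard errors are log2 fold changes over the root of the test's F. Whole-library measures were tested with exact permutation tests (scipy 1.17.1). Frog and bird levels are means of log2(CPM + 1) over 41 clawed frog, 20 leopard frog, 14 cormorant, 16 adult quail and 20 early-life quail control libraries. An identifier that a table does not list was entered there as without counts. Replicate columns were compared by chi-square, leaving out identifiers whose expected count was under 5. Alternatives were RLE size factors, library totals alone, other filters, 37 libraries in place of table sums, the chemical name as a block, DESeq2 1.42.0, thinned libraries, other minnow tables, and each table or library left out. The rule for named identifiers took, per direction, the 2 largest log2 fold changes among those called in the table sums and in all 4 pairs with 1 sign, without overlap of libraries, and with at least 10 counts in every table. The script was tested on simulated counts. No sequence, coordinate or gene name could be attached to an identifier, so none is printed.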

Additional observations from a re-analysis of the deposited data

Results flagged for a closer look

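The species difference varied over the 4 pairs of tables for 7973 of 16977 identifiers (edgeR quasi-likelihood F test, adjusted p below 0.05). The difference measured was thus not the same in each pair of tables, with libraries as the unit of replication. What sets the tables apart was not tested. The same F test was passed by s2f_0000390005 (edgeR adjusted p = 9.40e-06) and s2f_0005035001 (edgeR adjusted p = 0.00674) among the 4 identifiers given library by library.

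Of 50 groups of 4 to 7 libraries or 4 tables examined for a value far from the others, 4 held one, and chance flags about 1 in 20. In the minnow benzo[a]pyrene table, replicate D had 1329 CPM of s2f_0000390005 beside 1018 to 1062 CPM in the other libraries. In the minnow ethinylestradiol table, replicate A had 1317 CPM of s2f_0001344001, the highest of the table's 5 libraries. In the trout benzo[a]pyrene table, replicate CB had 1.14 CPM of s2f_0001344001, the highest of 7 low values. In the minnow selenomethionine table, replicate D had the lowest share of counts in the 100 most abundant identifiers, 34.7%.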

How the results depend on the processing

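The counts of identifiers higher and lower in minnow, with and without the 2-fold threshold, stayed within 1.5 times their main values under every alternative run for them: higher 5361 to 7588 and lower 4878 to 7514, with the lowest count of lower identifiers from library totals alone and the largest counts from the 37 libraries in place of table sums. With the chemical name as a replicate block over the table sums, 6097 were higher and 6078 lower, and 2828 and 2618 past 2-fold. Deviations of same-named tables from their species mean correlated across identifiers at 0.17 (benzo[a]pyrene), 0.30 (ethinylestradiol), -0.05 (fluoxetine) and 0.30 (selenomethionine). Deviations from a mean over the same tables depend on each other, so these values do not decide whether some studies were paired. The main fit on table sums used no pairing, and whether some studies were paired was not tested. Minnow ethinylestradiol and selenomethionine correlated best with the trout table of their own name, minnow benzo[a]pyrene with trout selenomethionine (0.31) and minnow fluoxetine with trout ethinylestradiol (0.05). With the controls of 4 other minnow embryo tables, 5740 were higher and 5575 lower. The 4 pairs, the variation over pairs (7168 to 8543 with 1 library left out, 8763 by DESeq2) and the F tests over the tables of each species also stayed within 1.5 times. The fluoxetine contrasts did not, nor did pairs of tables of 1 species that include fluoxetine, as given beside them. Of these pairs, only minnow ethinylestradiol against fluoxetine stayed within 1.5 times. The 0 calls between minnow benzo[a]pyrene and selenomethionine controls became up to 4. The remaining pairs of tables of 1 species stayed within 1.5 times. Without 1 trout library, calls between S and C titles ranged from 0 to 13. The difference in the share of the 10 most abundant identifiers, 0.50 percentage points in favour of minnow, reversed without 1 table, to -0.22 without minnow ethinylestradiol, -1.30 without trout benzo[a]pyrene and -0.61 without trout selenomethionine, with a range of -1.30 to 2.65. That of the 100 most abundant, -1.42, turned to 0.99 without trout ethinylestradiol, with a range of -3.24 to 0.99, and none of these passed a test. For the 4 named identifiers all 18 alternatives kept the call, with log2 fold changes of 9.94 to 11.15, 8.59 to 9.04, -9.92 to -9.27 and -9.44 to -9.17. As the rule took the largest differences among called identifiers, the kept calls follow from that choice and are no separate support. With a minimum count of 50, the fish-only list held 47 higher and 165 lower of 263 tested (median log2 fold change -1.58) and the fish-and-frog list 42 higher and 182 lower of 265 (median -2.17). The cause of these changes was not tested. Depth limits identifiers at a few counts, such as the low side of each named one.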
